A study of Mus musculus with 24 samples.

Results

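Heme and iron handling was followed through 10 genes chosen by symbol, 10 of the 53392 genes quantified: Hmox1 and Blvrb of heme breakdown, the ferritin chains Fth1 and Ftl1, the importers Tfrc and Slc11a2, the exporter Slc40a1 with the oxidases Cp and Heph, and the regulator Ireb2. The libraries hold polyadenylated RNA from kidneys of male and female mice of the inbred FVB strain, after ischemia-reperfusion injury (IRI) or a sham procedure without injury. From digested kidneys, proximal tubules (PTs) were microdissected, and endothelial cells (endo) were captured with microbeads against CD31, the protein encoded by Pecam1. The 8 groups are Sham F, IRI F, Sham M and IRI M in each isolation, with 3 libraries each except 2 in Sham F endo. No genetic change, drug or diet is named for any group, and the labels used here give neither the age of the mice nor the time after injury. The protocol names 3 mice of each sex per group, so each library of a group was counted as 1 mouse.

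Heme oxygenase 1, encoded by Hmox1, opens the heme ring and releases iron, carbon monoxide and biliverdin, and Blvrb encodes one of the reductases that act on biliverdin. Free iron is stored in ferritin, a shell of heavy chains (Fth1), which oxidize iron, and light chains (Ftl1), and it leaves cells through ferroportin (Slc40a1) with the help of the copper oxidases ceruloplasmin (Cp) and hephaestin (Heph). Proximal tubule cells reabsorb filtered iron-binding proteins and heme proteins, and heme oxygenase 1 is a classic stress-induced gene of these cells. Iron regulatory proteins, of which Ireb2 encodes IRP2, bind stem-loops in untranslated regions (UTRs), called iron-responsive elements. In a 5′ UTR such a stem-loop holds back translation when iron is scarce, and in the 3′ UTR of Tfrc it protects the messenger RNA.

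The stem-loops of the members are printed here because iron regulatory proteins bind elements of this form. The search looked on the transcript strand for a loop CAGTGN whose last base is not G, with an unpaired C placed 6 bases before the loop and at least 4 of the 5 stem pairs between the C and the loop. It found the motif in annotated UTRs (GENCODE M21, genome build GRCm38) of 5 of the 10 members, and in 3.68% of 21877 protein-coding genes (0.654% in a 5′ UTR, 3.04% in a 3′ UTR). Each sequence is 30 bases, 5′ to 3′, with the 6 bases of the loop in capitals. Fth1 (chr19:9982732-9982761, plus strand), Ftl1 (chr7:45459778-45459807, minus strand) and Slc40a1 (chr1:45925464-45925493, minus strand) hold it in the 5′ UTR. Tfrc holds 4 in the 3′ UTR (plus strand, chr16:32631219-32631248, chr16:32631598-32631627, chr16:32631663-32631692 and chr16:32631710-32631739). Slc11a2 holds 1 in the 3′ UTR of a single coding transcript, Slc11a2-205 (chr15:100395152-100395181, minus strand). The sites of Ftl1, Slc40a1 and Tfrc also lie in a single coding transcript each, Ftl1-201, Slc40a1-201 and Tfrc-201.
Fth1: ttcctgcttcaaCAGTGCttgaacggaacc
Ftl1: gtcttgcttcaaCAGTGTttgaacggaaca
Slc40a1: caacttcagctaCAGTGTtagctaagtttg
Tfrc, site 1: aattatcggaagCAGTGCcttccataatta
Tfrc, site 2: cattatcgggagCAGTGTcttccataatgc
Tfrc, site 3: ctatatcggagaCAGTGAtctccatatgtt
Tfrc, site 4: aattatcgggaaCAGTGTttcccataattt
Slc11a2: agccatcagagcCAGTGTgtttctatggtt
All 5 stem pairs were present in every site but that of Slc11a2, which has 4. No UTR of Hmox1, Blvrb, Cp, Heph or Ireb2 held this motif, which says only that these letters were absent from the annotated UTRs.

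Depth was 32592517 to 54906972 estimated reads per library in the 23 libraries, after the 2 libraries of the third Sham M PTs sample were added. Against their label, the endothelial isolates held much tubule RNA. The 12 endothelial markers summed to 531 to 2460 CPM there (reads of a gene scaled to a fixed library total, not divided by length) and to 181 to 524 CPM in tubule libraries, while the 12 proximal tubule markers summed to 7115 to 21600 and to 10030 to 23380 CPM, and the 10 markers of the thick ascending limb and distal tubule to 9993 to 21140 and to 2556 to 10370 CPM. A pair of libraries stood apart. The library labelled IRI M PTs replicate 3 had Spearman's rho of 0.938 to 0.943 with the rest of its group and of 0.968 with IRI M endo replicate 3, over 21206 genes. The library labelled IRI M endo replicate 2 correlated with its group at 0.923 to 0.927 but with IRI M PTs replicate 1 at 0.959. The marker ranges above include both libraries, so lying within them is no check of the labels. IRI M PTs replicate 3 had the lowest proximal tubule (10030 CPM) and distal sums of the tubule libraries. IRI M endo replicate 2 had the lowest proximal tubule sum (7115 CPM) of the endothelial libraries. Distal and endothelial sums were 2556 and 291 CPM in IRI M PTs replicate 3, and 19310 and 1612 CPM in IRI M endo replicate 2. These sums lay outside the ranges of the isolation not on the label. IRI M PTs replicate 3 and IRI M endo replicate 3 share title number 7, while the latter pair have 4 and 3. In all, 6 of the 23 libraries were nearest to a library of another group. The numbers in the library titles also split the groups: every injured library has a number from 1 to 8, every sham female library one from 10 to 13, and the sham males have 5, 6 and 9. In females, injury and title number range cannot be told apart. In these bulk libraries, fewer cells of a type and less RNA per cell cannot be told apart either.

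Per unit of transcript length, the ferritin chains were far above the other members. In TPM (a transcript level divided by length and scaled to a fixed total) of the coding transcript with the most reads, the medians over the 23 libraries were 2910 for Fth1 (1630 to 6350) and 1310 for Ftl1 (654 to 2360). Next came Slc40a1 with a median of 14.3 TPM (2.88 to 18.8), Tfrc with 9.57 (4.88 to 29.8), Ireb2 with 9.27 (7.38 to 13.2) and Hmox1 with 8.05 (2.01 to 79.8). Slc11a2 had a median of 5.75 TPM (2.42 to 7.71), Blvrb 5.5 (0.979 to 22.1), Heph 1.27 (0.312 to 2.06) and Cp 0.993 (0 to 4.08). The range of each of these transcripts overlapped that of its neighbours in this order, apart from the gap between Ftl1 and Slc40a1. The order holds for these single transcripts only. Summed over all transcripts of the gene, Slc11a2 read 15.79 to 50.36 TPM, above Ireb2 at 7.405 to 15.75 TPM. Slc40a1 read 16.95 to 148.2 TPM in such sums. Cp read 0.6795 to 24.39 TPM and Heph 0.3225 to 2.97 TPM, with overlap.

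Transcripts of heme breakdown and of heavy chain ferritin were higher after injury in the tubules of males. Of the 10 members, 3 rose there (Hmox1, Fth1 and Blvrb) and 0 fell, where 10.6% of the 18369 genes tested rose and 8.43% fell. In tubules of females 0 of 10 rose or fell, and of all genes 0.0109% rose and 0% fell. The endothelial isolates of males had 1 member that rose, Hmox1, and 0 that fell, beside 0.537% and 0.326% of 19910 genes. In those of females 0 members and 0% of genes passed in either direction. A member rose or fell where its adjusted p (Benjamini-Hochberg over all genes tested, edgeR quasi-likelihood test) was under 0.05, and log2 changes carry their SE. The median log2 change of the 10 members was 0.30 in male tubules, 0.28 in female tubules, 0.47 in male and 0.28 in female endothelial isolates, against medians over all genes of -0.026, 0.004, -0.024 and 0.008. In the female comparisons 2032 genes in tubules and 475 in endothelial isolates had an unadjusted p below 0.05, and DESeq2 called 612 and 29.

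Hmox1, the heme oxygenase gene (chromosome 8, 75093621 to 75100589), had the largest rise. In male tubules it read 30.9, 36.6 and 23.2 CPM in the sham libraries and 259, 213 and 77.5 CPM in the injured ones. The groups did not overlap, and the library that stood apart was the lowest of the injured libraries while still above every sham library. The log2 change was 2.60 ± 0.38 (edgeR adjusted p = 0.0024). Without that library it was 2.96 (adjusted p = 3.3e-06), and with only these 6 libraries in the fit 2.63 (adjusted p = 0.054). In female tubules Hmox1 read 12.8, 10.6 and 16.0 CPM after sham and 20.7, 21.6 and 14.9 CPM after injury. These groups overlapped in CPM, and the log2 change of 0.54 ± 0.37 did not pass (edgeR adjusted p = 0.70). In TPM they did not overlap, at 3.88 to 5.31 after sham and 5.67 to 8.74 after injury. The difference between the male and female responses was 2.06 ± 0.52 (edgeR adjusted p = 0.079), a test in which 0.855% of genes passed and 0 of 10 members did. It passed for Hmox1 without the library that stood apart (2.42, adjusted p = 0.00022).

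Endothelial isolates showed the same order of groups for Hmox1. The sham males read 31.9, 23.4 and 11.6 CPM and the injured males 72.0, 128.5 and 76.0 CPM, with no overlap and a log2 change of 2.05 ± 0.37 (edgeR adjusted p = 0.036). The sham females read 6.05 and 5.89 CPM and the injured females 18.9, 13.3 and 20.5 CPM. These groups did not overlap either, but the change of 1.56 ± 0.42 did not pass (edgeR adjusted p = 1). The male call held without the endothelial library that stood apart (1.73, adjusted p = 0.038). It was lost with the proximal tubule marker score as a covariate (adjusted p = 0.60), with length offsets (adjusted p = 0.055), with the 6 libraries alone (adjusted p = 0.19) and without sham replicate 1 (adjusted p = 0.092), sham replicate 2 (adjusted p = 0.16) or injured replicate 1 (adjusted p = 0.053). No sex difference of the response was found in these isolates (0.49 ± 0.54, edgeR adjusted p = 0.80). Among all genes 0% passed that test, 1294 reached an unadjusted p under 0.05 and DESeq2 called 49.

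Blvrb, the biliverdin reductase B gene (chromosome 7, 27447978 to 27466144), rose less. Male tubules read 9.86, 13.4 and 9.40 CPM after sham and 14.6, 26.6 and 19.0 CPM after injury. The lowest injured library lay just above the highest sham library in CPM, while in TPM the groups overlapped. The log2 change was 0.88 ± 0.23 (edgeR adjusted p = 0.026). The call was lost with length offsets (adjusted p = 0.065), with the 6 libraries alone (0.13), with the title number range as a covariate (0.082), and without sham replicate 1 (0.085), sham replicate 3 (0.085) or injured replicate 2 (0.12). Female tubules stayed within 10.2 to 13.6 CPM in all 6 libraries. In endothelial isolates of males the injured libraries read 42.6, 12.9 and 20.3 CPM and overlapped the sham libraries at 16.8, 13.8 and 10.5 CPM.

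**Figure D1:**
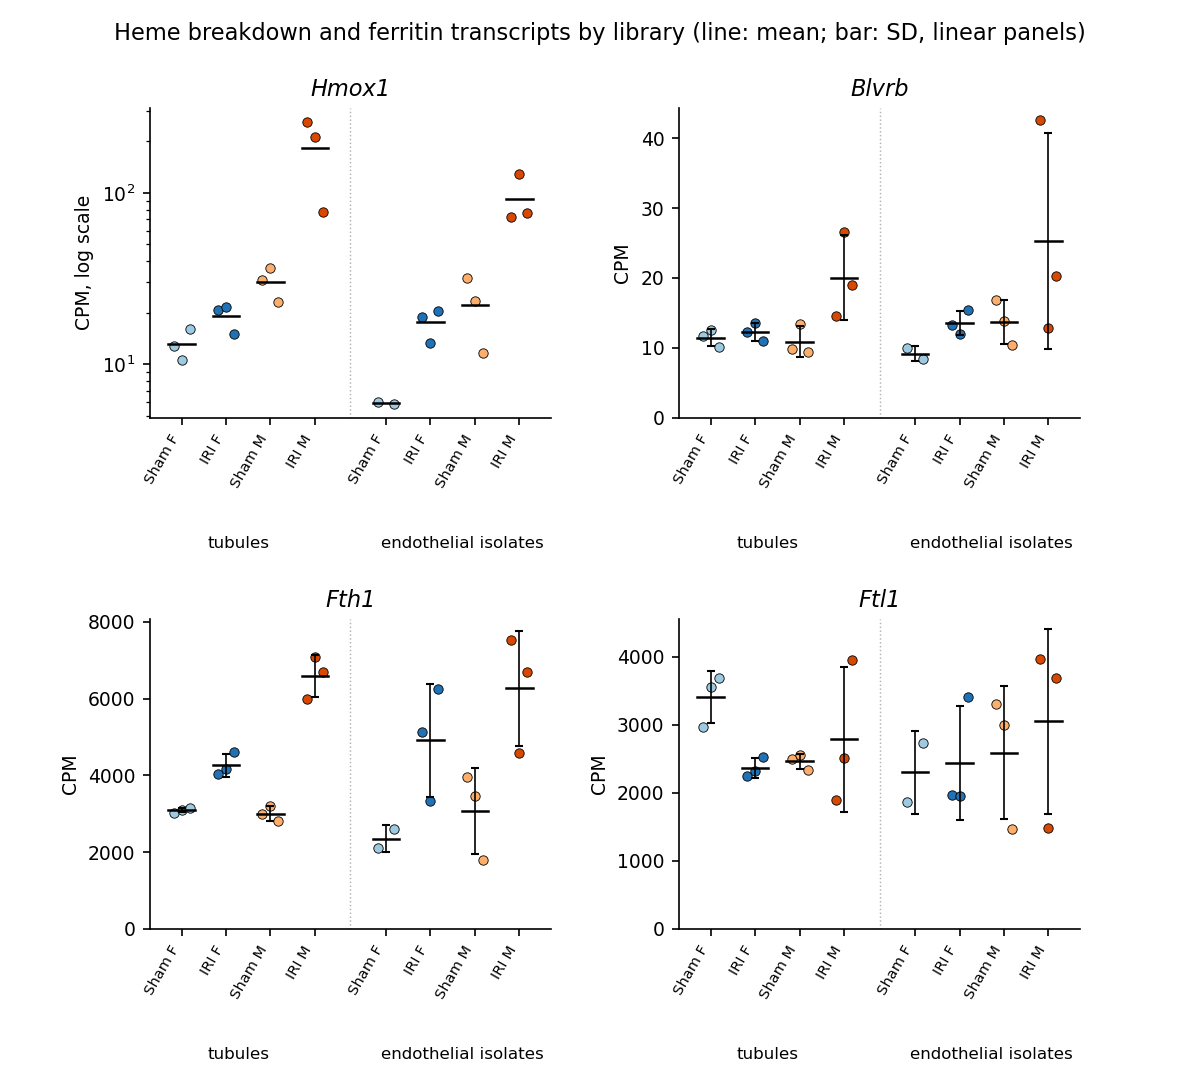
CPM in each library (points) for Hmox1 (log axis), Blvrb, Fth1 and Ftl1, by group, with the group mean as a line and the SD as bars on the linear panels. Injured males carry the highest Hmox1 values in both isolations, 77.5 to 259 CPM in tubules and 72.0 to 128.5 CPM in endothelial isolates, and injured male tubules the highest tubule Fth1 values.

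Markers of other cells moved with these changes. In male tubules 8 of 12 proximal tubule markers fell after injury and 0 rose, their sum being 20560 to 23380 CPM in sham and 10030 to 14120 CPM in injured libraries. Neutrophil markers rose in 4 of 5 tested, and their sum over 9 genes was 1.29 to 2 CPM after sham and 40.8, 23.4 and 4.93 CPM after injury, while Mmp8, Camp and Ngp had no read in any sham male library. Macrophage markers rose in 1 of 9 tested, with sums over 12 genes of 33.4 to 43 and 41.2 to 67.6 CPM, and Clec4f and Vsig4 had no read in either group. Erythroid markers passed in 0 of 6 tested, but their sum over 9 genes was 28.7 to 44 CPM after sham and 137, 127 and 24.5 CPM after injury, with Rhag at 0 in every male tubule library and Gata1 at 0 in all sham and 2 of 3 injured ones. Distal markers rose in 1 of 10 and fell in 2, with sums of 2568 to 4430 CPM after sham and 6912, 6815 and 2556 CPM after injury. The part of these cells in the Hmox1, Blvrb and Fth1 values was not tested. The endothelial library with the highest Hmox1 value, IRI M endo replicate 2, also had the highest neutrophil sum, 124.9 CPM, where the male endothelial groups had 3.26 to 5.12 CPM after sham and 11.7 to 124.9 CPM after injury. Proximal tubule markers summed to 10290 to 18170 CPM in sham and 7115 to 7911 CPM in injured male endothelial isolates. Their part in the endothelial Hmox1 values was not tested. These sums do not overlap, so the covariate fit above cannot tell that part from injury.

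The heavy and light ferritin chains parted after injury. Fth1 (chromosome 19, 9980598 to 9985098) read 2996, 3195 and 2811 CPM in sham male tubules and 5989, 7073 and 6683 CPM in injured ones. The 3 injured libraries lay close together, far above the sham libraries, and the library that stood apart lay between the other injured libraries. The log2 change was 1.13 ± 0.12 (edgeR adjusted p = 4e-04), and it passed under every alternative tried for this comparison. Female tubules read 3026, 3107 and 3154 CPM after sham and 4028, 4155 and 4600 CPM after injury. Every injured library was above every sham library, but the log2 change of 0.46 ± 0.12 did not pass (edgeR adjusted p = 0.13). DESeq2 (0.44, adjusted p = 0.016), the 6 female libraries alone (0.46, adjusted p = 0.020) and the fit without IRI M PTs replicate 3 (0.46, adjusted p = 0.037) passed. The male response exceeded the female one by 0.67 ± 0.16 (edgeR adjusted p = 0.075, or 0.0060 without that library).

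Endothelial Fth1 values were more scattered. Males read 3951, 3451 and 1799 CPM after sham and 7519, 4594 and 6686 CPM after injury, and females 2095 and 2593 against 5140, 3335 and 6249 CPM. Neither pair of groups overlapped, and neither change passed (males 1.03 ± 0.34, edgeR adjusted p = 0.18, females 1.07 ± 0.39, edgeR adjusted p = 1).

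Ftl1 (chromosome 7, 45457944 to 45459884) did not follow its partner. Sham male tubules read 2500.0, 2553 and 2337 CPM and injured ones 1887, 2509 and 3960 CPM, an overlap in which the highest value came from the library that stood apart (0.18 ± 0.22, edgeR adjusted p = 0.60, and -0.16 without that library). Female tubules read 2968, 3554 and 3691 CPM after sham and 2246, 2328 and 2520 CPM after injury. In CPM every injured female library was below every sham female library, while in TPM the groups overlapped. The change of -0.53 ± 0.22 did not pass (edgeR adjusted p = 0.40). It passed with the 6 female libraries alone (-0.52, adjusted p = 0.025) and turned to 0.098 with the distal marker score as a covariate. The distal marker sums of these sham and injured females do not overlap, so that covariate cannot be told apart from injury. Endothelial Ftl1 overlapped between sham and injury in both sexes. The pseudogene record Ftl1-ps1, nearly identical in sequence to Ftl1, took at most 0.654% of the reads of the Ftl1 family in any library.

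Within each library, the ratio of heavy to light chain transcript was higher after injury in all 4 pairs of groups. The log2 of Fth1 TPM over Ftl1 TPM was 0.63, 0.63 and 0.68 in IRI F PTs and 1.46, 1.31 and 0.56 in IRI M PTs. The sham tubules read -0.065, -0.30 and -0.31 (females) and 0.057, 0.13 and 0.17 (males). No injured tubule library fell as low as the highest sham library. The mean difference was 0.93 (two-sided exact permutation test within sex, p = 0.005, adjusted p = 0.025 over 10 tests). In endothelial isolates the injured libraries read 1.17, 0.56 and 0.68 (females) and 0.72, 1.42 and 0.66 (males), and the sham libraries 0.12 and -0.18 (females) and 0.052, 0.022 and 0.19 (males). The difference there was 0.84 (two-sided exact permutation test, p = 0.005, adjusted p = 0.025). That call was lost in 10 of the 11 fits that left out 1 library, with differences of 0.72 to 0.91 and adjusted p up to 0.094, and it was 0.72 (adjusted p = 0.050) without IRI M endo replicate 2. Leaving out 1 library also leaves fewer than the 200 permutations of the full endothelial test, which raises the smallest p possible. Those losses therefore cannot tell a weaker ratio from a coarser test. In tubules the adjusted p was 0.050 without Sham M PTs replicate 3. In the males with title numbers 1 to 8 alone, chosen after seeing the data, the differences were 1.01 in tubules and 0.90 in endothelial isolates, with exact permutation p-values of 0.2 and 0.1 where 0.1 is the smallest that 3 against 2 libraries allow.

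The share of Ftl1 TPM in Ftl1-201, the coding transcript that holds the stem-loop printed above, followed the title numbers. It was 56.7 to 59.1% in all 16 libraries numbered 1 to 8 and 66.1 to 70.0% in all 7 libraries numbered 9 to 13, sham males on both sides of the gap. The injury difference was -6.88 percentage points in tubules and -6.92 in endothelial isolates (two-sided exact permutation tests, adjusted p = 0.088 and 0.050), and 0.15 and -0.53 in the males numbered 1 to 8. Shares of Tfrc, Slc40a1 and Slc11a2 transcripts with the motif did not pass either (adjusted p = 0.42 to 0.99).

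**Figure D2:**
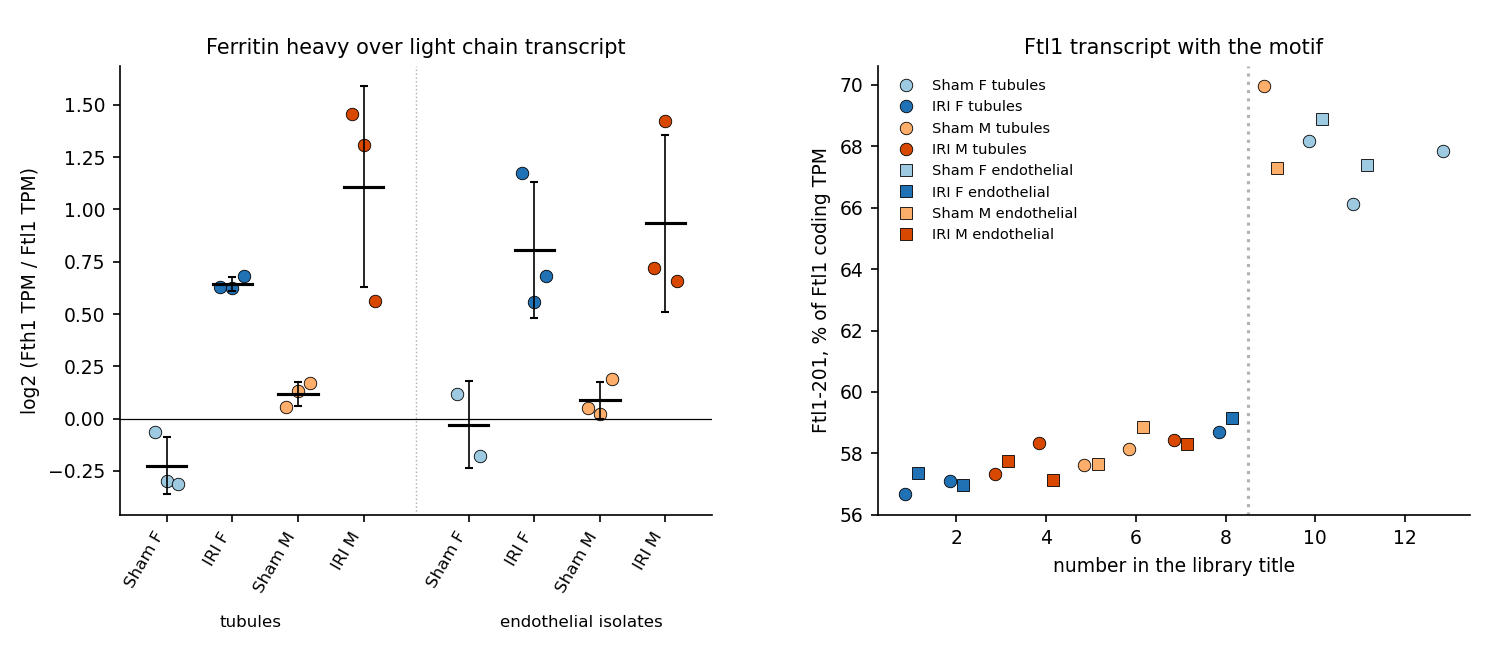
Left, log2 of Fth1 TPM over Ftl1 TPM in each library (points) by group, with mean and SD; the injured tubule libraries lie at 0.56 to 1.46 and the sham tubule libraries at -0.31 to 0.17. Right, the percent of Ftl1 coding TPM in the transcript Ftl1-201 against the number in the library title; libraries numbered 1 to 8 lie at 56.7 to 59.1% and those numbered 9 to 13 at 66.1 to 70.0%.

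Import genes did not pass in any injury comparison. Tfrc, which encodes the transferrin receptor (chromosome 16, 32608920 to 32632794), read 113, 98.1 and 92.2 CPM in sham male tubules and 102, 124 and 170 CPM in injured ones, with overlap (0.39 ± 0.23, edgeR adjusted p = 0.26). Female tubules read 83.2, 77.7 and 49.6 CPM after sham and 90.8, 95.7 and 130 CPM after injury, without overlap (0.59 ± 0.23, edgeR adjusted p = 0.36). In endothelial isolates the injured males were scattered at 249, 56.8 and 211 CPM, the low value being the library that stood apart. Slc11a2, which encodes the iron transporter DMT1 (chromosome 15, 100387898 to 100425072), read 105, 93.3 and 105 CPM in sham male tubules and 59.5, 55.5 and 103 CPM in injured ones. Injured replicates 1 and 2 were below every sham library and replicate 3, the library that stood apart, was among them. The log2 change of -0.47 ± 0.21 did not pass (edgeR adjusted p = 0.13), but Slc11a2 passed with the distal marker score as a covariate (-0.57, adjusted p = 0.014). Without that library it fell (-0.81, adjusted p = 0.00031) and its response differed between the sexes (-0.76, adjusted p = 0.0050). Female tubules kept within 81.8 to 108 CPM in all 6 libraries.

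The ferroportin gene Slc40a1 (chromosome 1, 45908068 to 45926523) read 51.3, 51.2 and 91.0 CPM after sham and 27.6, 39.9 and 89.1 CPM after injury. The third library of each group was far above the other members of its group, and the change of -0.30 ± 0.36 did not pass (edgeR adjusted p = 0.58). The estimate turned on single libraries. Without IRI M PTs replicate 3 Slc40a1 fell (-0.93, adjusted p = 0.011), while it was 0.028 without Sham M PTs replicate 3 and 0.006 without IRI M PTs replicate 1. Female tubules read 128, 113 and 142 CPM after sham and 106, 101 and 92.1 CPM after injury, every injured library being lower (-0.36 ± 0.36, edgeR adjusted p = 0.85). In the male endothelial isolates the library that stood apart, at 21.6 CPM, was again the extreme, and the other injured libraries read 90.4 and 89.1 CPM beside 81.4, 102 and 54.2 CPM after sham.

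The ferroxidases were low and variable in tubules. Cp, the ceruloplasmin gene (chromosome 3, 19957054 to 20009145), read 1.02, 3.79 and 3.96 CPM in sham and 7.22, 19.7 and 8.30 CPM in injured female tubules. The groups did not overlap, and the change of 2.00 ± 0.60 did not pass (edgeR adjusted p = 0.20, DESeq2 adjusted p = 0.020). Male tubules read 17, 13.0 and 6.32 CPM against 22, 14.5 and 42.1 CPM, with overlap (1.11 ± 0.58, edgeR adjusted p = 0.19). In injured female tubules the distal markers summed to 7825 to 10370 CPM, against 3030 to 3484 CPM in sham females. The 9 collecting duct markers summed to 898 to 1161 CPM there, against 93.7 to 266 CPM in sham females. The part of collecting duct cells in these values was not tested. With the distal marker score as a covariate, no member passed in females, and the log2 changes of Hmox1, Ftl1, Slc40a1 and Slc11a2 turned to -0.59, 0.098, 0.65 and 0.55. Since the distal sums of sham and injured females do not overlap, this covariate cannot be told apart from injury there. Heph, the hephaestin gene (chromosome X, 96455359 to 96574485), read 12.1, 12.7 and 8.44 CPM in sham and 22.1, 15.9 and 14.6 CPM in injured female tubules, without overlap (0.66 ± 0.29, edgeR adjusted p = 0.42). Male tubules read 5.36, 2.88 and 6.52 CPM and 5.63, 6.02 and 5.45 CPM, with overlap.

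In endothelial isolates none of these transport genes passed. Cp read 23, 24.1 and 47.1 CPM in sham males and 44.1, 50.0 and 59.6 CPM in injured males, and 34.3 and 24 against 59.5, 45.0 and 28.7 CPM in females, with overlap in both sexes. Heph read 9.11 to 18.7 CPM in sham and 9.67 to 11.9 CPM in injured males. Slc11a2 read 58.0 to 95.7 CPM in sham males and 89.4, 37.8 and 85.7 CPM in injured males, where the low library was again the one that stood apart.

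Ireb2 (chromosome 9, 54863789 to 54912530) had the smallest estimate in male tubules. Sham male tubules read 100, 119 and 153 CPM and injured ones 142, 113 and 117 CPM, within the same range (-0.002 ± 0.17, edgeR adjusted p = 0.99). Female tubules read 138, 109 and 107 CPM after sham and 97.7, 93.1 and 105 CPM after injury, each injured library being lower (-0.26 ± 0.17, edgeR adjusted p = 0.68). Endothelial libraries ranged from 75.0 to 121 CPM with overlap between sham and injury in both sexes.

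**Figure D3:**
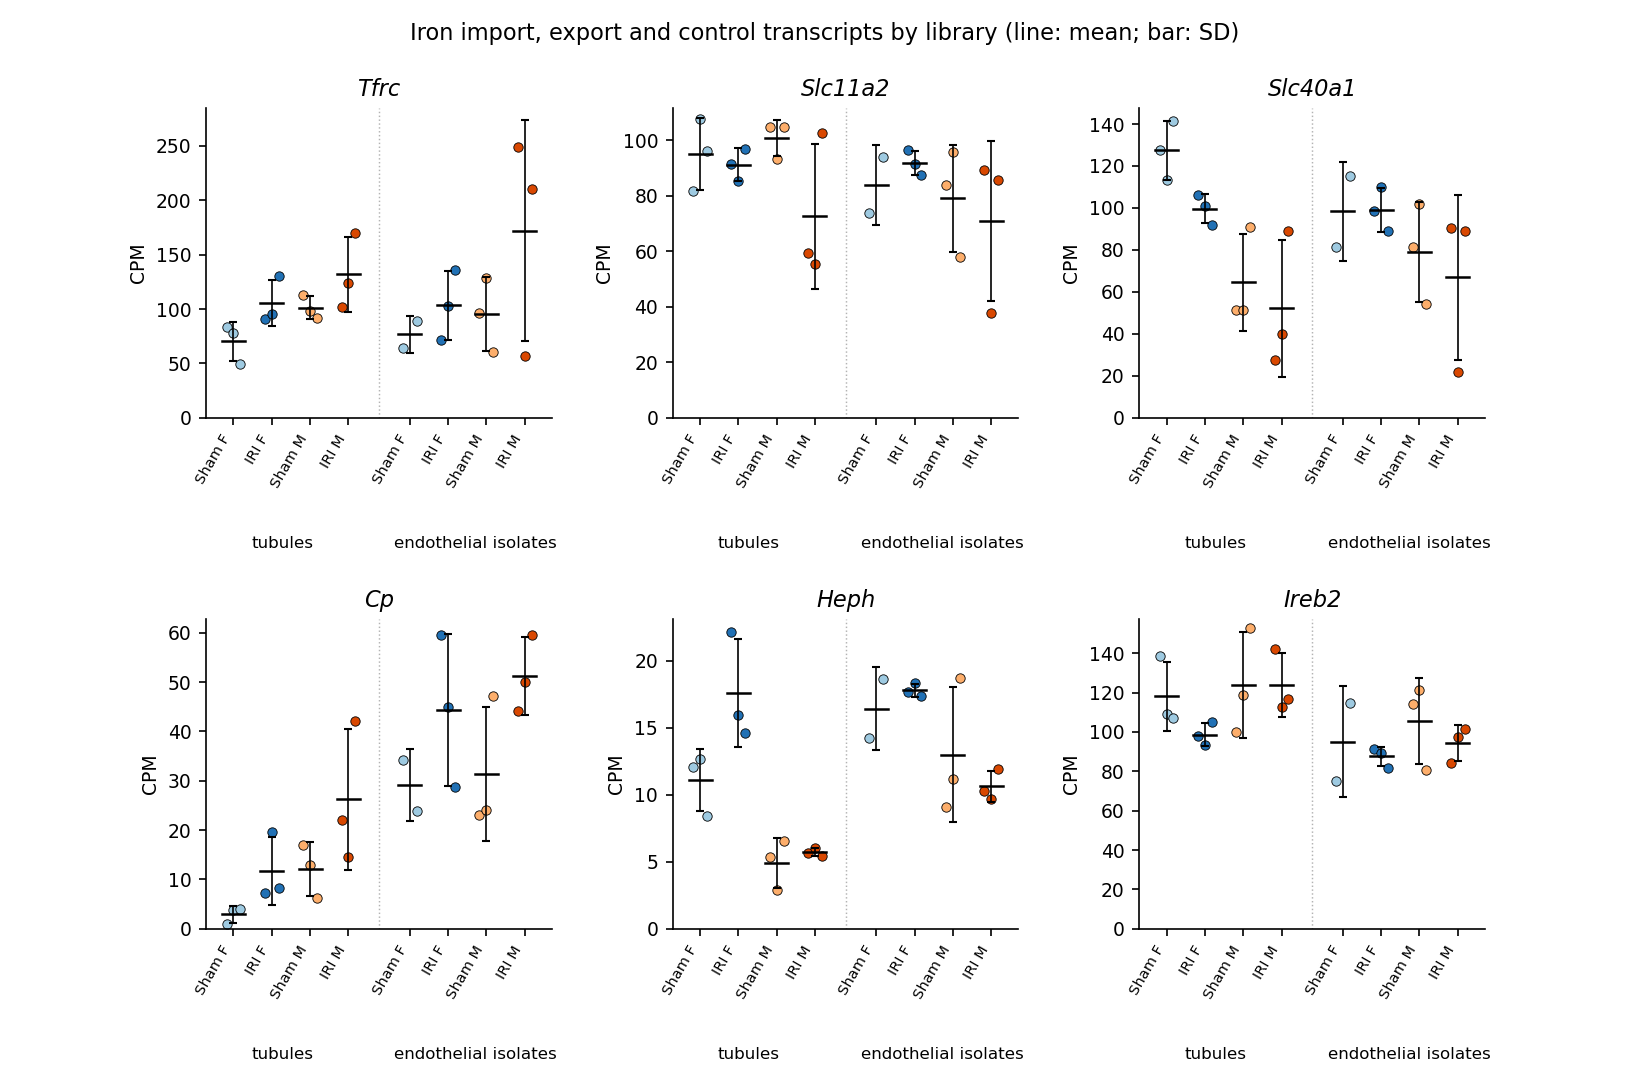
CPM in each library (points) for Tfrc, Slc11a2, Slc40a1, Cp, Heph and Ireb2, by group, with mean and SD. Heph in male tubules (2.88 to 6.52 CPM) lies below Heph in female tubules (8.44 to 22.1 CPM), and IRI M PTs replicate 3 lies apart from its group for Slc11a2 and Slc40a1.

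Groups without overlap were counted for sham against injury: 3 of 10 members in male tubules, 7 in female tubules, 2 in male and 3 in female endothelial isolates. Over all genes tested, 30.8%, 27.1%, 17.8% and 24.7% had no overlap in the same comparisons. The 7 in female tubules were Fth1, Tfrc, Cp and Heph, higher after injury, and Ftl1, Slc40a1 and Ireb2, lower. Under the test itself 0 of these 7 passed, and the female groups also differ in title number range. Overlap of a gene between sham and injury was judged in CPM and depends on that scale. In TPM summed over all transcripts of the gene, Tfrc, Ftl1, Slc40a1 and Ireb2 overlapped in female tubules, while Hmox1 did not.

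**Figure D4:**
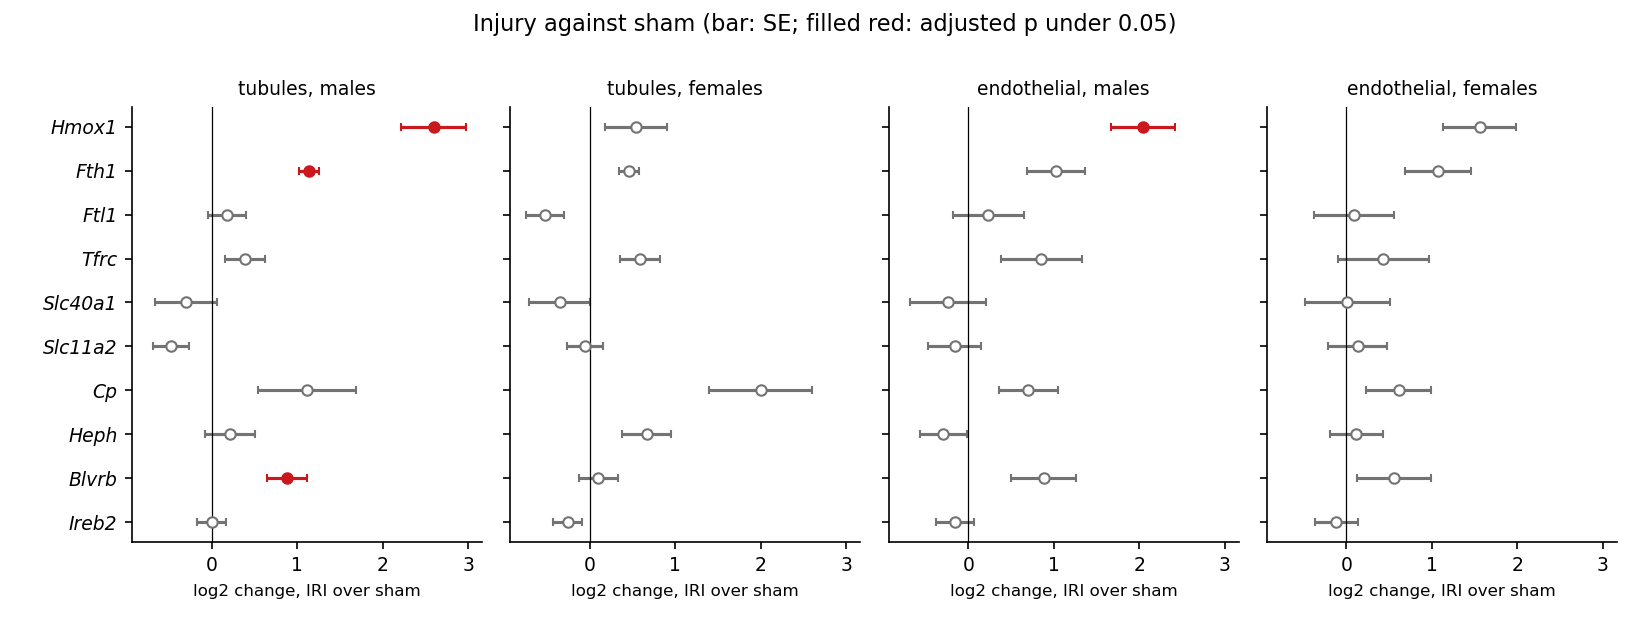
Log2 change of injury over sham (points) with its SE (bars) for the 10 members in tubules and endothelial isolates of each sex, filled where the edgeR adjusted p was under 0.05. The filled points are Hmox1 (2.60), Fth1 (1.13) and Blvrb (0.88) in male tubules and Hmox1 (2.05) in male endothelial isolates.

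Males and females differed most in the injured tubules. There 4 of 10 members passed, where 23.3% of genes did: Hmox1, Fth1 and Blvrb were higher in males and Heph was higher in females. After sham 1 of 10 members passed, Heph, where 5.80% of genes did. In endothelial isolates 0 of 10 members passed after sham and 1, Hmox1, after injury, beside 0.432% and 1.5% of genes. The median log2 difference of the members, males over females, was 0.33 in injured and 0.013 in sham tubules, against -0.061 and 0.013 over all genes.

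Hmox1 in injured tubules was 77.5 CPM in the lowest male and 21.6 CPM in the highest female library, a log2 difference of 3.27 ± 0.39 (edgeR adjusted p = 0.00054) that passed under every alternative tried. In sham tubules every male library (23.2 to 36.6 CPM) was above every female library (10.6 to 16.0 CPM), but 1.2 ± 0.37 did not pass (edgeR adjusted p = 0.087). It passed without IRI M PTs replicate 3 (adjusted p = 0.0032), with DESeq2 (adjusted p = 0.023) and with the 6 sham libraries alone (adjusted p = 0.013). Endothelial Hmox1 after injury was 72.0 to 128.5 CPM in males and 13.3 to 20.5 CPM in females, 2.39 ± 0.38 (edgeR adjusted p = 0.012, or 0.017 without IRI M endo replicate 2). Its call was lost with the proximal tubule marker score as a covariate (adjusted p = 0.33) and without any 1 of the 3 injured female libraries (adjusted p = 0.051 to 0.079). Proximal tubule sums of these males (7115 to 7911 CPM) and females (13820 to 18140 CPM) do not overlap, so that covariate cannot be told apart from sex. Endothelial Hmox1 after sham was 11.6 to 31.9 CPM in males and 5.89 and 6.05 CPM in females, without overlap (1.90 ± 0.43, edgeR adjusted p = 0.12). This difference passed without the filter (adjusted p = 0.0058), with DESeq2 (0.0024), without Sham M endo replicate 3 (0.021) and without IRI M endo replicate 2 (0.049).

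Heph ran the other way. In sham tubules males read 2.88 to 6.52 CPM and females 8.44 to 12.7 CPM (-1.17 ± 0.30, edgeR adjusted p = 0.039), and in injured tubules 5.45 to 6.02 and 14.6 to 22.1 CPM (-1.62 ± 0.30, edgeR adjusted p = 0.0043). The groups did not overlap in either state. The sham call was lost in 10 alternatives, among them the fits without sham female replicate 1 or 2 or sham male replicate 1 or 2 (adjusted p = 0.10 to 0.14), and it was -0.76 (adjusted p = 0.41) with the title number range as a covariate. The injured call was lost with the distal marker score as a covariate (-1.05, adjusted p = 0.22). Distal sums of injured male (2556 to 6912 CPM) and female (7825 to 10370 CPM) tubules do not overlap, so that covariate cannot be told apart from sex. In endothelial isolates after injury Heph read 9.67 to 11.9 CPM in males and 17.4 to 18.3 CPM in females, a gap that did not pass (-0.74 ± 0.28, edgeR adjusted p = 0.25).

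Fth1 in injured tubules was 0.63 ± 0.12 higher in males (edgeR adjusted p = 0.0045), and Blvrb was 0.71 ± 0.23 higher (edgeR adjusted p = 0.046). After sham Fth1 was -0.045 ± 0.12 apart between the sexes (edgeR adjusted p = 0.90) and Blvrb -0.071 ± 0.23 (edgeR adjusted p = 0.93). The Fth1 call was lost with the distal marker score as a covariate (adjusted p = 0.086) and with the 6 injured libraries alone (adjusted p = 0.050). That of Blvrb was lost in 9 alternatives (adjusted p up to 0.21), and in 1 more its adjusted p was 0.050. Its injured male libraries read 14.6, 26.6 and 19.0 CPM and the injured females 11.0 to 13.6 CPM. Slc40a1 was lower in male tubules by point estimate after sham (-0.98 ± 0.36, edgeR adjusted p = 0.16) and after injury (-0.93 ± 0.36, edgeR adjusted p = 0.084). Without IRI M PTs replicate 3 both differences passed, at -0.98 (adjusted p = 0.013) after sham and -1.56 (adjusted p = 0.00047) after injury, and with the distal marker score as a covariate both passed too (adjusted p = 0.015 and 0.0087). Cp was higher in sham male tubules by 2.04 ± 0.60 without passing (edgeR adjusted p = 0.075). It passed with DESeq2 (adjusted p = 0.0048), without the filter (0.021), with length offsets (0.038) and without IRI M PTs replicate 3 (0.033). The 9 collecting duct markers summed to 1390, 675 and 178 CPM in the sham male tubules and to 93.7 to 266 CPM in the sham female tubules. The part of collecting duct cells in these Cp values was not tested.

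**Figure D5:**
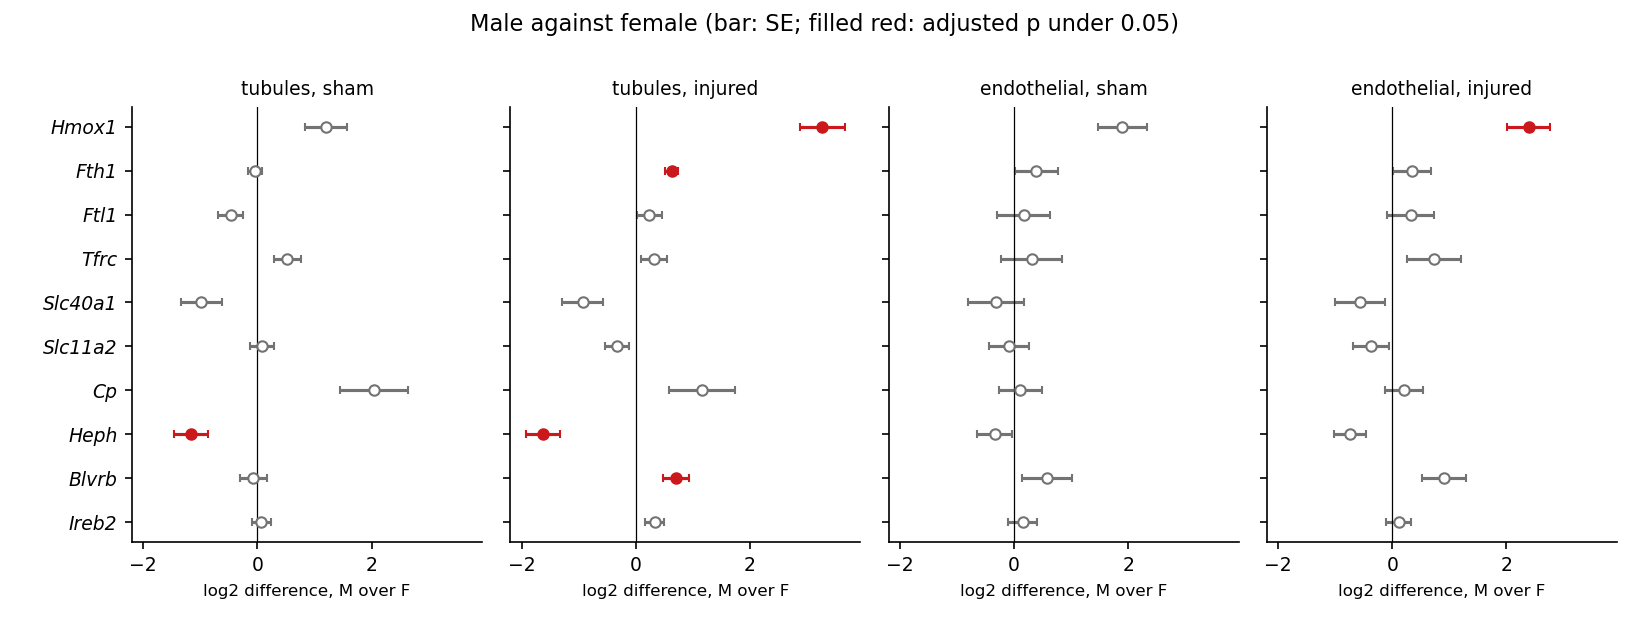
Log2 difference of males over females (points) with its SE (bars) for the 10 members in sham and injured libraries of each isolation, filled where the edgeR adjusted p was under 0.05. Hmox1 lies to the right of 0 in all 4 panels (1.2 to 3.27) and Heph to the left (-1.62 to -0.34).

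Between the isolations, sham endothelial libraries had more Cp and Heph and less Hmox1 than sham tubule libraries. Of the members 2 were higher in endothelial isolates, where 10.4% of 21206 genes were, and 1 was lower, where 1.86% were. Cp read 23 to 47.1 CPM in the sham endothelial libraries and 1.02 to 17 CPM in the sham tubule libraries (2.21 ± 0.39, edgeR adjusted p = 0.00089), with no overlap. Heph differed by 0.85 ± 0.22 (edgeR adjusted p = 0.013) and Hmox1 by -0.93 ± 0.28 (edgeR adjusted p = 0.034, lost in 8 alternatives). After injury 1 member was higher in endothelial isolates and 0 lower, beside 3.90% and 0.797% of genes. Cp was again that member (1.31 ± 0.37, edgeR adjusted p = 0.047, lost in 10 alternatives and at 0.050 in 1 more). Without the pair of libraries that stood apart Cp was 1.59 (adjusted p = 0.0064) and Hmox1 -1.03 (adjusted p = 0.0018), and 4 members passed. The injury response did not differ between the isolations for any of the 10 members (edgeR adjusted p = 1) or for any gene (0%), while 1011 genes had an unadjusted p under 0.05 and DESeq2 called 23. Without that pair Slc11a2 passed (0.58, adjusted p = 0.022). Since tubule markers were high in both isolations, these differences are between isolates, not between pure cell types.

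Of the wider heme and iron list, 73 genes were in the files and 66 were tested in tubules, and 12 of them rose and 10 fell after injury in males, where 10.6% and 8.43% of all genes did. The counts by role rest on 3 to 19 genes each and are to be read beside those shares. The median log2 change of the list was -0.020. In females 0 of 66 passed (median -0.055), and in endothelial isolates 1 of 67 rose in males and 0 in females (medians -0.16 and 0.12). Among 11 genes of heme synthesis 0 rose and 3 fell in male tubules. They were Uros (-1.28 ± 0.28, edgeR adjusted p = 0.013), Alad (-0.60 ± 0.17, edgeR adjusted p = 0.035) and Abcb10 (-0.94 ± 0.29, edgeR adjusted p = 0.042), the first of which encodes uroporphyrinogen III synthase and the second an earlier enzyme of the same pathway. Leaving out 1 library ended the call of Alad in 5 of 6 fits, that of Abcb10 in 5 of 6 and that of Uros in 2 of 6. The library that stood apart lay near the sham libraries, with 117 CPM of Alad beside 72.6 and 75.7 in the other injured males and 124 to 146 after sham. Of 9 tested genes of heme and heme protein transport and breakdown 3 rose and 2 fell. Flvcr2 fell from 14.8, 10.2 and 15 CPM to 4.06, 3.21 and 6.41 CPM (-1.54 ± 0.28, edgeR adjusted p = 0.0059), and Slc48a1, a lysosomal heme transporter gene, rose by 0.50 ± 0.12 (edgeR adjusted p = 0.018), a call lost in 4 of the 6 fits without 1 library. Hp, which encodes the hemoglobin-binding protein haptoglobin, had no read in any sham male tubule library and read 4.58, 2.26 and 0.134 CPM after injury. Against a floor of 3 counts over the sham group (0.0237 CPM) its mean of 2.32 ± 2.22 CPM (SD, n = 3) was at least 98-fold higher (edgeR adjusted p = 0.022). The floor allows for counting error only, while the SD and the test use the spread between libraries. That fold is of the mean, and the injured libraries were widely spread. The Hp call was lost in 5 of the 6 fits without 1 library (adjusted p = 0.057 to 0.072).

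Of 12 genes of iron uptake and reduction 5 rose and 1 fell in male tubules. Steap1, of the family of metal reductases, rose from 2.31, 2.62 and 2.60 CPM to 14.8, 26.5 and 18.6 CPM (2.99 ± 0.24, edgeR adjusted p = 0.00014). Lcn2, which encodes the siderophore-binding protein lipocalin 2, read 5.09, 2.10 and 0.354 CPM in sham and 507, 488 and 186 CPM in injured libraries, and it was the gene of the list that rose in male endothelial isolates (7.36 ± 0.85, edgeR adjusted p = 0.0098). This endothelial call was lost with the proximal tubule marker score as a covariate (adjusted p = 0.48) and without sham replicate 1 (adjusted p = 0.065) or 2 (adjusted p = 0.074). The divalent metal importer gene Slc39a8 fell from 86.4, 88.0 and 60.2 CPM to 32.2, 28.5 and 32.5 CPM (-1.33 ± 0.17, edgeR adjusted p = 0.0011). None of the 3 tested genes of iron storage and ferritin turnover passed. Of 6 tested genes of iron regulation 2 rose, Bmp6 (1.01 ± 0.21, edgeR adjusted p = 0.011) and Hfe (1.36 ± 0.38, edgeR adjusted p = 0.032). The Hfe call was lost in 5 of the 6 fits without 1 library and with the title number range as a covariate (adjusted p = 0.090), and its change was 0.90 (adjusted p = 0.050) without IRI M PTs replicate 3.

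Among 6 genes that control transcription of Hmox1 and the ferritins, 1 rose in male tubules. Nfe2l2, which encodes the stress-response factor NRF2, read 74.7, 62.5 and 60.2 CPM in sham males and 346, 341 and 77.7 CPM in injured males (1.95 ± 0.41, edgeR adjusted p = 0.011). Injured replicate 3, the library that stood apart, was far below the other injured libraries and barely above the sham libraries, and without it the change was 2.38 (adjusted p = 2.1e-07). With the 6 male libraries alone the call was lost (1.99, adjusted p = 0.10). In the female tubules Nfe2l2 read 61.4 to 71.0 CPM after sham and 81.5 to 85.9 CPM after injury. In the endothelial isolates the library that stood apart was the high one, at 422 CPM beside 137 and 111 CPM in the other injured males. Of 19 genes of mitochondrial iron and iron-sulfur clusters 1 rose, the glutaredoxin gene Glrx5 (1.05 ± 0.23, edgeR adjusted p = 0.014), and 4 fell, among them Isca1 (-0.52 ± 0.11, edgeR adjusted p = 0.012) and the cysteine desulfurase gene Nfs1 (-0.49 ± 0.10, edgeR adjusted p = 0.012). Glrx5 read 204 and 215 CPM in injured replicates 1 and 2, 101 CPM in the library that stood apart and 81.2 to 87.2 CPM after sham, and its call was lost without injured replicate 1 (adjusted p = 0.054) or 2 (adjusted p = 0.061). With the 6 male libraries alone Uros, Flvcr2, Bmp6, Glrx5, Isca1 and Nfs1 did not pass (adjusted p = 0.084 to 0.14), while Steap1, Lcn2 and Slc39a8 passed under every alternative tried in male tubules.

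The genes whose pattern over the 23 libraries lay nearest to each member were found among 10438 protein-coding genes by the root mean square difference of centred log2 CPM. For Hmox1, whose own log2 CPM had an SD of 1.46, they were Tnfrsf12a (0.50), Syt12 (0.58) and Krt8 (0.59). For Fth1 (SD 0.56) they were Apex1 (0.30), 1700037H04Rik (0.30) and Rpl10a (0.305), and for Ftl1 (SD 0.42) Nme1 (0.20), Atp6v1c1 (0.205) and Mrpl40 (0.215). Slc40a1 (SD 0.68) had Steap2 (0.22), a metal reductase gene of the wider list, as its nearest gene. Blvrb (SD 0.50) had Pold4 (0.18), Pgd (0.23) and Ran (0.25). Tfrc had Nubp1 (0.295), Slc11a2 had Fbxo22 (0.12), Cp had Tgfb1 (0.67), Heph had Etnk1 (0.33) and Ireb2 had Csnk1g3 (0.14). These values are descriptions over libraries that span both isolations and differ in depth.

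The authors' deposited tables, made with DESeq2, give the same members in male tubules: Hmox1 2.47, Fth1 1.14 and Blvrb 0.81 as log2 changes past an adjusted p of 0.05. Over all genes, 4101 passed in that table. Some deposited log2 changes are much smaller than those found here, such as 0.075 beside 0.54 for Hmox1 in female tubules. Their sizes are therefore not compared. For female tubules the authors' deposited table has 2 members past that threshold, Fth1 (0.41, adjusted p = 0.0094) and Cp (1.46, adjusted p = 0.036), where 0 passed here. Over all genes, 497 passed in that table and 2 in the edgeR fit here. For injured males against injured females the authors' deposited table has 6, adding Slc40a1 (-0.86, adjusted p = 0.031) and Cp (1.15, adjusted p = 0.031) to the 4 found here. For sham tubules the authors' deposited table has 3, Hmox1 (1.03, adjusted p = 0.022), Cp (2.31, adjusted p = 0.00018) and Heph (-0.99, adjusted p = 0.0075), where 1820 genes passed. For endothelial isolates the authors' deposited tables have Hmox1 alone, in males after injury (1.90, adjusted p = 8.3e-05), in injured males against females (2.24, adjusted p = 1.2e-06) and in sham males against females (1.67, adjusted p = 0.0034), and no member in females after injury. Over all genes, 1082, 1050, 422 and 57 passed in these tables, in the same order.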

How the data were processed

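The authors' estimated counts per transcript were made with Salmon 0.13.1 on GRCm38, per the submitters' processing notes, and their values in TPM come from the same deposited files. The authors' deposited comparison tables give log2 fold changes with adjusted p-values, made with DESeq2 per the submitters' processing notes. Transcript estimates were added up to gene level and rounded to whole counts, the 2 libraries of 1 sham male sample were added, and genes were filtered with filterByExpr (minimum count 10, minimum total 15). Each isolation was fitted in edgeR 4.0.16 (R 4.3.3, TMM scaling, quasi-likelihood test) over its 4 groups, and both isolations together for comparisons between them. All 10 members passed the filter in every fit. Depth was 32592517 to 54906972 reads per library, and the errors given are those between libraries. The ferritin ratio and transcript shares were tested by exact permutation within sex. The members and lists were chosen with earlier results of these data known. Named genes are all members, up to 3 called genes per role of the wider list with the smallest adjusted p, and the 3 nearest patterns per member. Alternatives were DESeq2 1.42.0, RLE scaling, no filter, length offsets, a replicate block, marker scores and title number range as covariates, either library of the added pair alone, the compared groups alone, and each library left out. The fits were tested on simulated data. The labels do not say whether tubule and endothelial samples came from the same mice, and both isolations were treated as unpaired.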

Additional observations from a re-analysis of the deposited data

Results flagged for a closer look

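The response of Steap1, a metal reductase family gene, differed between the sexes in tubules by the test of the difference itself, at 2.71 ± 0.33 on the log2 scale for males over females (edgeR adjusted p = 0.0047). Sham males read 2.31, 2.62 and 2.60 CPM and injured males 14.8, 26.5 and 18.6 CPM. Sham females read 7.42, 7.51 and 6.24 CPM and injured females 7.2, 8.96 and 9.50 CPM, so the sham males were the lowest of the 4 groups and the injured males the highest. The difference passed under every alternative tried for it, from 2.45 to 2.89 with adjusted p up to 0.049.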

How the results depend on the processing

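The 3 calls of Hmox1, Fth1 and Blvrb in male tubules became 1 with the compared groups alone, and leaving out 1 library gave 2 to 5 called members. The count of all genes called moved as well, and the member counts are to be read beside it. In male tubules it was 3488, or 953 to 8203 with a library of the comparison left out and 154 to 6377 otherwise. In female tubules 0 members became 2 with DESeq2 or the compared groups alone (0 to 1 with a library left out). All genes called there went from 2 to 612 with DESeq2. In male endothelial isolates 1 became 0 with length offsets, the replicate block, the proximal tubule score or the compared groups alone (0 to 1). All genes called there were 172, or 0 to 703 with a library of the comparison left out and 0 to 1146 otherwise. Between the sexes, sham tubules went from 1 to 3 without the filter, with DESeq2, with the distal score and with the compared groups alone, and to 0 with the replicate block, library 3 alone and the title number range (0 to 5). Injured tubules went from 4 to 2 with the compared groups alone, sham endothelial isolates from 0 to 1 without the filter and with DESeq2 (0 to 1), and injured ones from 1 to 0 with the proximal tubule score (0 to 1). Of all genes, 86 passed in sham endothelial isolates and 298 in injured ones. With a library of the comparison left out these were 25 to 218 and 77 to 386, and otherwise 40 to 370 and 10 to 1096. The sex difference of the tubule response went from 0 to 1 without the filter, 2 with DESeq2 and 3 with the distal score (0 to 3). Between isolations the sham count of 3 became 5 without the pair of libraries that stood apart (1 to 4), and the injured count of 1 became 2 with DESeq2, 0 with the block by bracket number or library 3B alone, and 4 without that pair (0 to 2). The response difference went from 0 to 1 without that pair, where all genes called were 0 to 2607 over the alternatives. All genes called between the sexes were 1065 in sham tubules (550 to 1127 with a library of the comparison left out, 417 to 2626 otherwise). In injured tubules they were 4271 (1884 to 8522, and 1710 to 6637). The sex difference of the tubule response had 157 (19 to 5892, and 42 to 5412). Between isolations they were 2603 after sham (1388 to 2676, and 1792 to 4205) and 995 after injury (399 to 1622, and 592 to 5425). The causes were not tested.

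Reversals concern members that did not pass. In male tubules Ireb2 was 0.039 (RLE), 0.060 (no filter), 0.037 (DESeq2), 0.27 (length offsets), 0.078 (3B alone), 0.035 (compared groups alone) and 0.18 (title range), and Slc40a1 0.028 (title range). With a library left out Heph was -0.059 to 0.47, Slc40a1 -0.93 to 0.028, Ireb2 -0.13 to 0.18 and Ftl1 -0.16 to 0.40. In female tubules the distal score gave -0.59 for Hmox1, 0.098 for Ftl1, 0.65 for Slc40a1 and 0.55 for Slc11a2, and the title range -0.004 for Hmox1, 0.47 for Slc40a1, 0.023 for Slc11a2, -0.21 for Blvrb and 0.22 for Ireb2. Slc11a2 was -0.15 to 0.076 with a library left out. In male endothelial isolates Ireb2 was 0 with length offsets, the proximal tubule score gave 0.54 for Ireb2, 0.95 for Slc40a1 and 0.70 for Slc11a2, and the title range -0.047 for Ftl1 and 0.068 for Heph. With a library left out Slc11a2 was -0.36 to 0.14, Ftl1 -0.046 to 0.56, Heph -0.47 to 0.070 and Slc40a1 -0.51 to 0.18. In female ones Slc40a1 was -0.005 with RLE or DESeq2, -0.34 with length offsets and -0.75 with the title range, Tfrc -0.14 and -0.46 with the last pair of settings, Ireb2 0.011 with the proximal tubule score, Ftl1 -1.01 and Slc11a2 -0.50 with the title range. With a library left out Ftl1 was -0.23 to 0.39, Slc40a1 -0.21 to 0.28, Slc11a2 -0.031 to 0.32, Heph -0.061 to 0.33 and Ireb2 -0.39 to 0.23. Cp between the sexes in injured tubules was -0.064 with the distal score. Slc40a1 between isolations after injury was -0.014 with the block by bracket number and -0.12 to 0.38 with a library left out.

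Replicate numbers did not pair the libraries: 2 of 18 same-numbered pairs in tubules, 4 of 15 in endothelial isolates and 3 of 11 by bracket number correlated above 0.1. With the replicate block, Ftl1 in female endothelial isolates was -0.005 and Hmox1 in male ones 2.10 (adjusted p = 0.091). In males numbered 1 to 8 the ferritin ratio was 1.01 in tubules and 0.90 in endothelial isolates, and shares of transcripts with the motif were 0.15 (Ftl1), 3.29 (Slc11a2) and 1.46 (Slc40a1) percentage points in tubules and -11.96 (Slc40a1) and -8.66 (Tfrc) in endothelial isolates. With a library left out the shares ran in tubules from -5.78 to 7.01 (Tfrc), -2.39 to 2.34 (Slc40a1), -1.99 to 0.79 (Slc11a2) and -7.95 to -4.87 (Ftl1), in endothelial isolates from -7.83 to -5.42 (Ftl1) and -6.76 to 8.27 (Tfrc), and the endothelial ratio from 0.72 to 0.91. The title range is estimated from sham males alone. Alternatives beyond those planned were chosen after seeing the data.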
